A study of Mus musculus with 4 samples.

Results

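RUNX1 binding at the genes of its own family was read from ChIP-seq of ovaries of CD1 mouse embryos at E14.5. Runx1, Runx2 and Runx3 encode the 3 DNA-binding subunits of core binding factor, and Cbfb encodes the subunit that all of them share. A peak was counted for one of these 4 genes when the transcription start site (TSS) nearest to its edge belonged to the gene or when the peak lay inside the gene. This rule, applied to curated RefSeq transcripts of mm10, found 8 of the 10494 deposited peaks, with 2 at Runx1, 3 at Runx2, 1 at Runx3 and 2 at Cbfb. In the plots, the peaks of a gene are lettered a, b and c in the order of their coordinates. The samples were 2 RUNX1 ChIP replicates and 2 input replicates, all from female embryos with no genetic change or treatment named in the labels. By the labels, 80 to 100 ovaries went into each ChIP, a range that differs from the one in the paper's methods. The ovaries were whole and freed of the mesonephros, so the chromatin came from every cell type of the organ. The paper found its Runx1 reporter in FOXL2-positive pre-granulosa cells, the supporting cells of the ovary, at this stage. The list itself does not give the cell type behind a peak. The replicates were merged before peaks were called, so that no peak has a value per replicate, an error or a test, and the counts below describe 1 list.

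RUNX proteins bind a short DNA core, TGTGGT or TGCGGT, through the Runt domain, and CBFB, which does not bind DNA itself, strengthens this binding. Each of the RUNX genes is transcribed from a distal promoter, P1, and from a proximal promoter, P2, which lies farther along the gene, and the proteins made from them begin with different residues. Outside the gonad, RUNX1 is known for blood stem cell formation, RUNX2 for bone and RUNX3 for T cells and sensory neurons. RUNX sites in these promoters are a known place for RUNX proteins to act on their own genes.

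The distal promoters hold such sites and the list has no peak there. The 3 P1 promoters share a run of 18 bases that holds a pair of RUNX cores in the same direction, 8 bp apart from start to start. Below, 30 bases around that run are shown 5′ to 3′ on the strand of the gene, from the C57BL/6J reference, GRCm38 (mm10). Capitals mark the RUNX core, which on the opposite strand reads ACCACA (for TGTGGT) or ACCGCA (for TGCGGT).
Runx1 P1, chr16:92826025-92826054, minus strand: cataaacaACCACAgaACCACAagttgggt
Runx2 P1, chr17:44814583-44814612, minus strand: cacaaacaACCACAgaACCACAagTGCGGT
Runx3 P1, chr4:135120503-135120532, plus strand: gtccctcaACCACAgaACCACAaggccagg
Counted with the first transcribed base as +1, the shared run began at +27 in Runx1, +22 in Runx2 and -136 in Runx3. It occurred 3 times on the assembled chromosomes, on either strand, and these were the 3 RUNX promoters. The peak nearest to the run was 129047 bp away at Runx1, 36937 bp at Runx2 and 31546 bp at Runx3.

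The cores that did lie in peaks of the 4 genes were single or unpaired, and 4 of the 8 peaks held at least 1. In all, 39.9% of peaks in the list held a core and 8.26% held 2 or more. The peak beside P2 of Runx1 held 2 cores, shown with 12 bases on either side, each on the strand that reads TGTGGT or TGCGGT.
Runx1 P2 peak, chr16:92696677-92696706, plus strand: tgtggctgatccTGTGGTttggtgggagtt
Runx1 P2 peak, chr16:92696871-92696900, minus strand: cgctccacctgcTGCGGTtacacggtgctc
The other 3 peaks with a core are shown whole, on the plus strand, because their core lay close to the peak centre.
Runx2 intron peak, chr17:44677801-44678100: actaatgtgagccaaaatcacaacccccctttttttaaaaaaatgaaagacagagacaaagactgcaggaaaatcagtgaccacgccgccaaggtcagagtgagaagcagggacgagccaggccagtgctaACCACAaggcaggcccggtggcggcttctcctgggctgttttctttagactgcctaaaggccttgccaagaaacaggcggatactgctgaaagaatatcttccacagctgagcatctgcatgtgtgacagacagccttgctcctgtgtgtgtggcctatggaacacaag
Runx3 P2 peak, chr4:135152072-135152371: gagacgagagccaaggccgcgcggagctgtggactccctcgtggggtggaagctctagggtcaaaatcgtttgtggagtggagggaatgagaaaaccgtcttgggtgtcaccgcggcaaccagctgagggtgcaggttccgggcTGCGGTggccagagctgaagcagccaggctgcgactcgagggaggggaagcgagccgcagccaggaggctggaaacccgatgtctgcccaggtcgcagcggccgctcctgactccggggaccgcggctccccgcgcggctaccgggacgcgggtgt
Cbfb upstream peak, chr8:105152930-105153229: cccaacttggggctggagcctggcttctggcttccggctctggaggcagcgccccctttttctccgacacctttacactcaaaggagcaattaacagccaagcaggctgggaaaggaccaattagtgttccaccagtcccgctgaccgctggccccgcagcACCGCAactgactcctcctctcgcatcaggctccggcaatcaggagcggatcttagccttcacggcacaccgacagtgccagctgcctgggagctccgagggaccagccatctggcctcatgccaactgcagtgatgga
The core centre was 16 bp left of the peak centre in the Runx2 peak, 3 bp left in the Runx3 peak and 14 bp right in the Cbfb peak. In the Runx1 peak the cores lay 143 bp left and 51 bp right of the centre. The form TGCGGT was in 3 of the 8 peaks (23.7% of all peaks) and TGTGGT in 2 of them (19.5% of all peaks). Of 16 windows of 300 bp placed 1 kb to either side of the 8 peaks, 5 held a core.

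**Figure D1:**
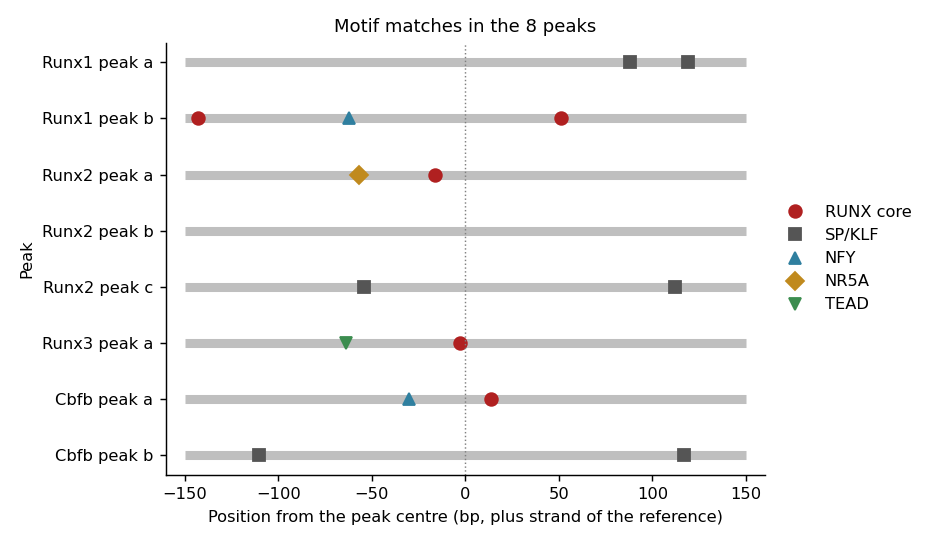
Motif matches in the 8 peaks. Each grey bar is a peak of 300 bp, the horizontal axis gives the distance from its centre in bp on the plus strand of the reference, and each symbol is a match on either strand. RUNX cores lie within 16 bp of the centre in Runx2 peak a, Runx3 peak a and Cbfb peak a, and 4 peaks have none.

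Beside P2 the picture was the other way round, with a peak at each of the RUNX genes. At Runx1, P2 lies 128.7 kb inside the gene (chr16:92601466-92826074, minus strand), and the peak at chr16:92696685-92696984 lay 345 bp downstream of its TSS. It fell in the 5′ untranslated part of exon 1 of both P2 transcripts and in intron 2 of both P1 transcripts. Its fold, the ratio to background given by the authors' peak caller, was 11.11 with a caller p-value of 5.32e-41. It had the highest fold of the peaks at the 3 RUNX genes, and 14.2% of all peaks had a higher one.

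At Runx2, P2 lies 78.62 kb inside the gene (chr17:44495987-44814797, minus strand) at the TSS used by most P2 transcripts. The peak at chr17:44735831-44736130 lay 46 bp downstream of that TSS, in exon 1 of all 4 P2 transcripts. Its fold was 5.55, with a caller p-value of 8.30e-16, and it held no RUNX core. At Runx3, P2 lies 31.9 kb inside the gene (chr4:135120645-135177990, plus strand). The peak lay 174 bp upstream of the P2 TSS, in intron 1 of the P1 transcript, and had the lowest fold of the 8, 4.83, with a caller p-value of 7.75e-18. A higher fold was found for 78.8% of all peaks, and the lowest fold in the whole list was 4.01, so the Runx3 peak lay near the limit of the list.

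P1 was far from any peak in all 3 genes. The nearest peak was 129090 bp from P1 in Runx1, 36975 bp in Runx2 and 31427 bp in Runx3. Between P1 and P2 there was no peak in Runx1, none in Runx3 other than the peak at P2 itself, and 1 in Runx2. A gene position without a peak means no enrichment past the authors' limits in merged, uniquely mapped reads, not an absence of binding.

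**Figure D2:**
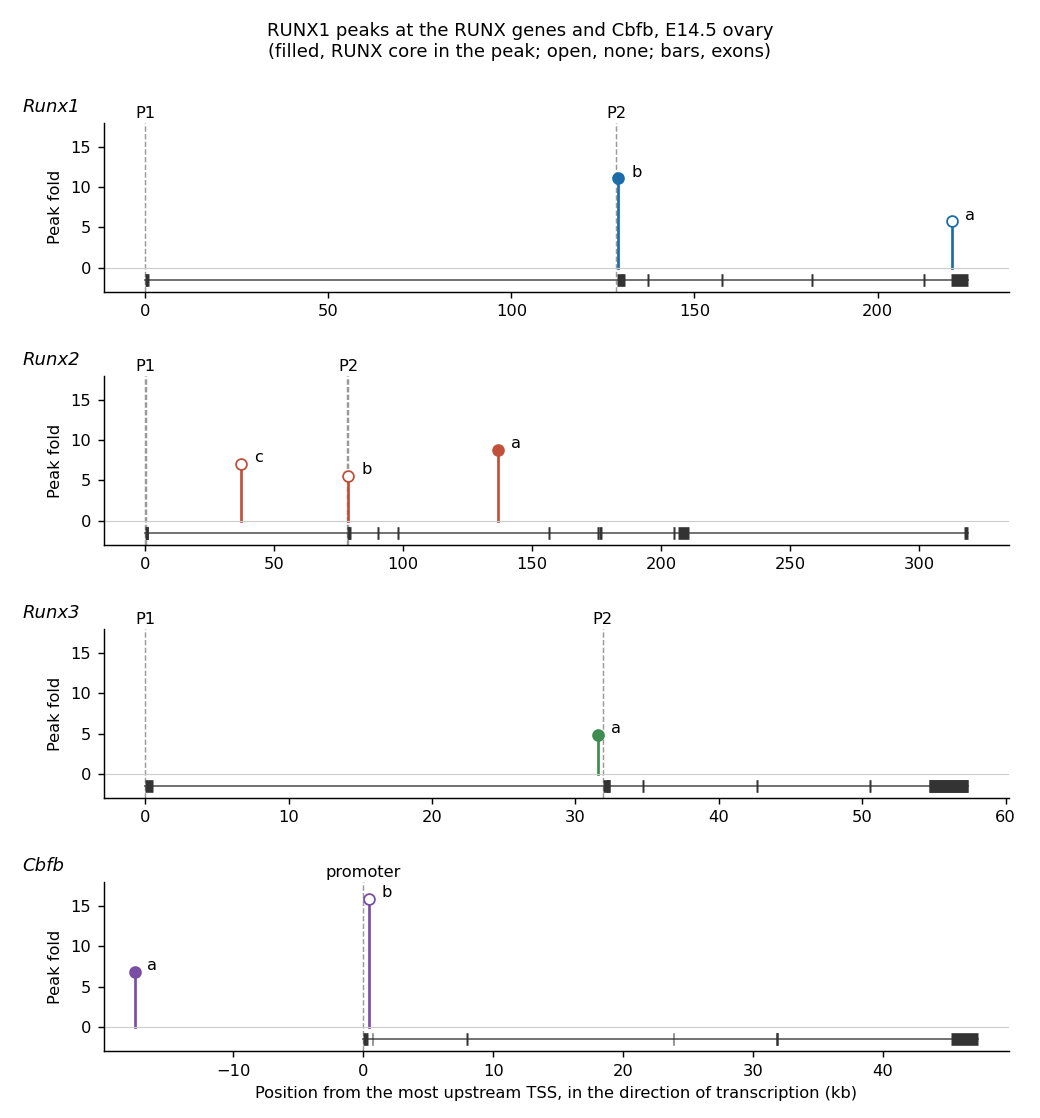
RUNX1 peaks along the 4 genes. The horizontal axis is the distance in kb from the most upstream TSS in the direction of transcription, the vertical axis is peak fold, dashed lines are TSSs, dark bars are exons, and circles are filled where the peak holds a RUNX core. Each RUNX gene has a peak at P2 (folds 11.11, 5.55 and 4.83) and none at P1, and Cbfb has its strongest peak, 15.92, at its only promoter.

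How common this arrangement is was read from all genes whose outermost promoters lie over 5 kb apart, after joining TSSs within 1 kb of each other. Of 1449 such genes, 165 (11.4%) had a peak within 1 kb of the most downstream promoter and not of the most upstream one, as all 3 RUNX genes did. The opposite arrangement was more frequent, with 466 genes (32.2%) marked at the upstream promoter alone, 79 at both and 739 at neither.

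The promoters of the RUNX genes also differed in base composition, and this moved with the peaks. In windows from 250 bases before to 50 after the TSS, the ratio of observed to expected CpG was 0.137, 0.143 and 0.264 in P1 of Runx1, Runx2 and Runx3. In P2 it was 1.01, 1.02 and 1.01 in the same order. GC content was 45%, 45.3% and 63.7% in P1 and 69%, 73.3% and 77.3% in P2. RUNX cores went the other way, with 2, 4 and 2 in the P1 windows of Runx1, Runx2 and Runx3 and 0 in each P2 window. The cores of the peaks beside P2 of Runx1 and Runx3 lie outside these windows. Over all 28844 promoters, 2.68% held 2 or more cores. The Cbfb promoter was like P2, with a CpG ratio of 0.987, a GC content of 69.7% and 0 cores.

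Among all promoters, those called CpG-rich here (CpG ratio of at least 0.6 and GC of at least 50%) had a peak within 1 kb in 62.2% of 11448 cases, and the rest in 9.69% of 17396. By number of cores in the promoter window, with both CpG classes pooled, a peak was found at 30.4% of promoters with 0 cores, 31.1% with 1 and 29.4% with 2 or more. Of CpG-poor promoters with 2 or more cores, the class that P1 of the RUNX genes belongs to, 57 of 533 (10.7%) had a peak. Of CpG-rich promoters with 2 or more cores, 170 of 240 (70.8%) had one. Both shares were above those of their whole CpG class, 9.69% and 62.2%, and the differences were not tested. Where a gene had a CpG-poor upstream and a CpG-rich downstream promoter, as the RUNX genes do, 87 of 167 genes (52.1%) had a peak at the downstream promoter alone. The RUNX genes are among these 167. The part of base composition in where the peaks of the RUNX genes lie was not tested.

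**Figure D3:**
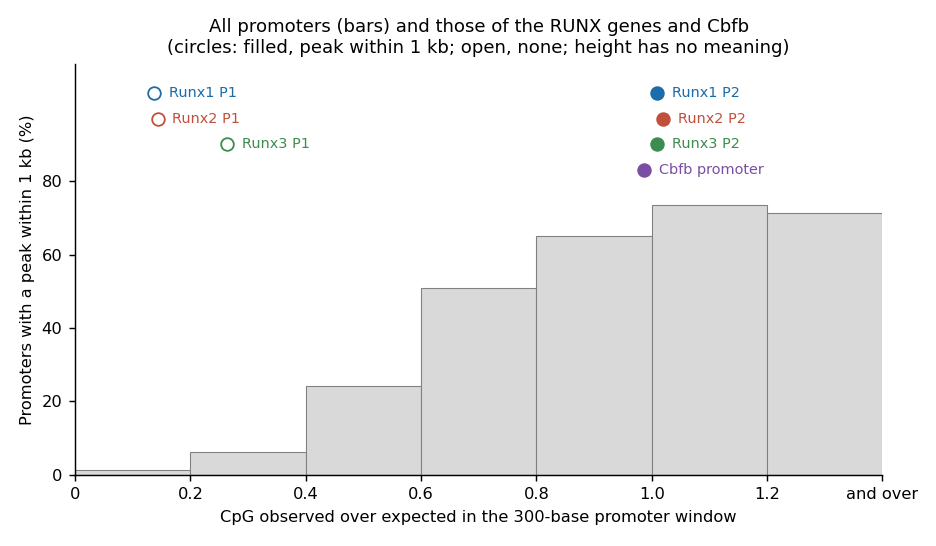
Share of promoters with a RUNX1 peak by CpG content. Bars give the percent of all promoters with a peak within 1 kb, by ratio of observed to expected CpG, the last bar holding all values of 1.2 and over, and circles place the promoters of the 4 genes on the same horizontal axis. The 3 P1 promoters (0.137 to 0.264, open, no peak) lie where 1.25% and 6.33% of promoters have a peak, and P2 and the Cbfb promoter (0.987 to 1.02, filled, peak) where 65% and 73.4% do.

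**Figure D4:**
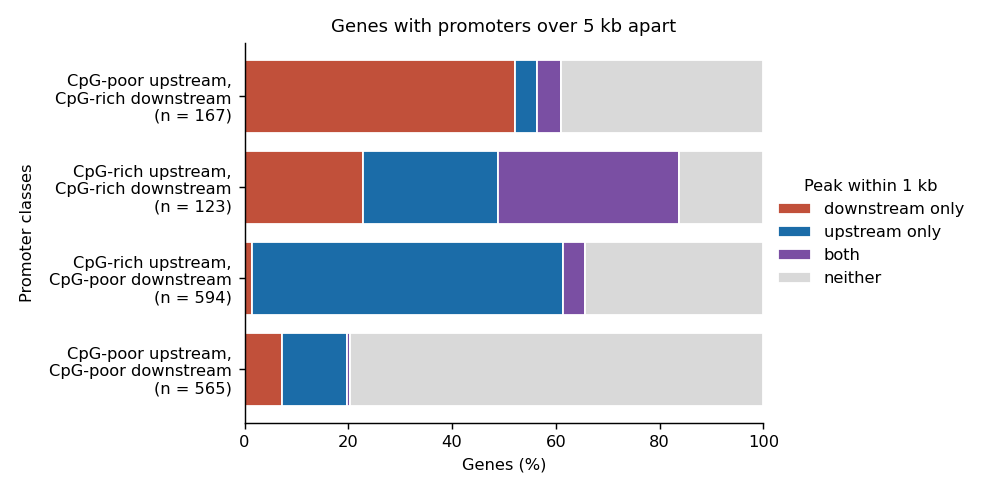
Genes with promoters over 5 kb apart, by the CpG class of the most upstream and most downstream promoter. Each bar adds to 100% of the genes in its class and its colours give which of both promoters had a peak within 1 kb. Runx1, Runx2 and Runx3 belong to the top bar, where 52.1% of 167 genes had a peak at the downstream promoter alone, against 1.52% of 594 genes with the reverse CpG arrangement.

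The paired cores of the P1 promoters were rare both in the list and among promoters, with the larger share in the list. A pair of cores in 1 direction with starts 8 bp apart was found in 16 of 10490 peaks (0.153%), and in 0 of the 8 peaks of these genes. Only 8 of 28844 promoter windows (0.0277%) held such a pair, and 3 of those 8 were P1 of the RUNX genes. The difference between the share of peaks and that of promoter windows was not tested. Of the 8 promoters, 1 had a peak within 1 kb, and it was CpG-rich.

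Cbfb, which has a single TSS shared by its 4 curated transcripts (chr8:105170674-105217989, plus strand), carried the strongest peak of the 4 genes. This peak, at chr8:105170929-105171228, lay 255 bp downstream of the TSS, with 125 of its 300 bp in exon 1 and the rest in intron 1. Its fold was 15.92 and its caller p-value 4.25e-36, and 5.65% of all peaks had a higher fold. It held no RUNX core. The weaker Cbfb peak lay 17445 bp upstream of the TSS, outside the gene, with a fold of 6.88 and a caller p-value of 6.85e-14, and it did hold a core. So at Cbfb the core was in the distal peak and not in the promoter peak.

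Peaks away from the promoters were found in Runx1 and Runx2. The second Runx1 peak, at chr16:92605567-92605866, lay wholly in the last exon, with its midpoint in the coding part, 91463 bp downstream of P2. Its fold was 5.76, its caller p-value 5.17e-13 and its GC content 70%, and it held no core. Its nearest TSS was that of the gene Gm30224, 9419 bp away, so it counts for Runx1 by position inside the gene only. In Runx2, the peak of highest fold lay in an intron of all 8 transcripts, 58076 bp downstream of P2, with a fold of 8.79 and a caller p-value of 2.42e-12. It had the lowest GC content of the 8 peaks, 50.7%, against a median of 66.3% over all peaks. Beside its RUNX core it held CAAGGTCA, the site of NR5A nuclear receptors such as SF1 and LRH-1, 57 bp left of its centre. NR5A sites (CAAGGTCA or CAAGGCCA, either strand) were in 4.42% of all peaks. The third Runx2 peak, at chr17:44777353-44777652, lay in the intron between P1 and P2, with a fold of 7.1 and a caller p-value of 9.73e-13. It was 187 bp downstream of the TSS of Supt3, which encodes a subunit of the SAGA coactivator complex and is read in the opposite direction, and 76 bp of the peak lay in a Supt3 exon, so that gene and Runx2 cannot be told apart as the one it belongs to.

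Among other motifs, GGGCGG, the site of SP and KLF factors, was in 3 of the 8 peaks (57% of all peaks) and CCAAT, the site of NFY, in 2 (23.5%). GGAATG, the site of TEAD factors, was in 1 of them, the Runx3 peak (10.8% of all peaks). The ETS site CCGGAAGT, the forkhead sites TGTTTAC and TATTTAC, the GATA sites AGATAA and TGATAA and the CTCF motif were in none of the 8, on either strand. In all peaks these were in 4.66%, 3.24%, 8.33% and 1.35%, in that order. Of the 16 windows beside the 8 peaks, GATA sites were in 5, and ETS sites, forkhead sites and the CTCF motif in 0. GGGCGG was in 1 of these windows, CCAAT in 4 and GGAATG in 2.

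In strength, the 8 peaks were ordinary for the list. Their median fold was 6.99 against 6.41 over all peaks, where the quartiles were 5.02 and 8.89, and 5 of the 8 lay above that median. A caller p-value under 1e-20 was given to 33.6% of all peaks and to 2 of these 8, the Runx1 P2 peak and the Cbfb promoter peak. With only peaks of fold 8 or more, 3 of the 8 were left, the same pair and the Runx2 intron peak, so the P2 peaks of Runx2 and Runx3 were lost and the arrangement stood for Runx1 alone.

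**Figure D5:**
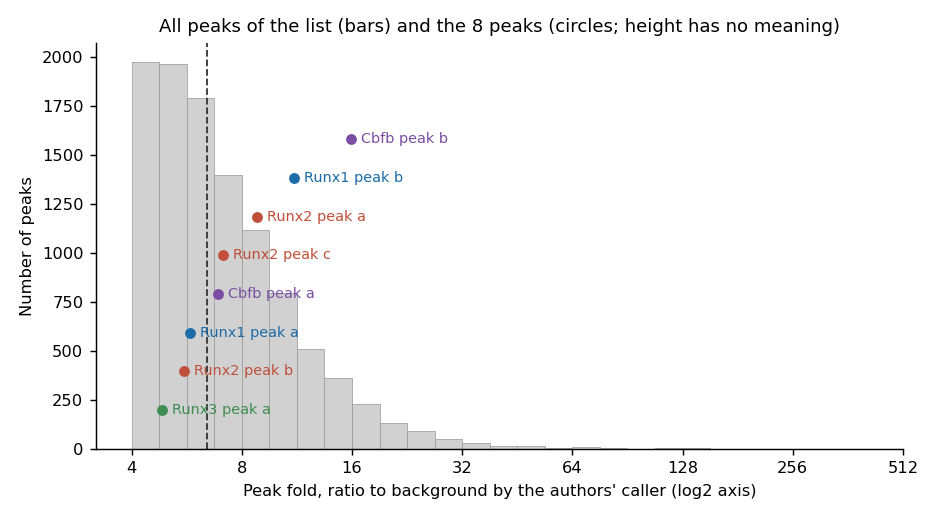
Fold of the 8 peaks among all 10494 peaks. The horizontal axis is peak fold on a log2 scale, bars count peaks, the dashed line is the median of 6.41, and circles mark the 8 peaks, with heights that carry no value. The 8 peaks run from 4.83 for Runx3 peak a, below the first quartile of 5.02, to 15.92 for Cbfb peak b, which 5.65% of all peaks exceed.

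All 4 genes were the nearest gene of at least 1 peak, as were 34.6% of 26180 genes and 39.1% of 21000 protein-coding genes. All 4 have a CpG-rich promoter, and of the 10194 protein-coding genes with one, 62.4% were nearest to a peak. All 4 had a peak within 1 kb of a TSS, as did 37.4% of protein-coding genes. Runx2 and Cbfb were each nearest to 2 peaks, and 5.37% of genes had as many or more. Of the 8 peaks, 4 lay within 1 kb of a TSS of their own gene, and another beside the Supt3 TSS, whereas 76.0% of all peaks had an edge within 1 kb of some TSS.

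Leaving out the 8 peaks themselves, the next peaks past the ends of the genes were 36306 to 1006114 bp away. For Runx1, the next peak was 1006114 bp upstream (nearest to Morc3) and 299950 bp downstream (nearest to Smim11). For Runx2 these distances were 618715 bp (Cdc5l) and 239079 bp (Clic5). For Runx3 they were 137184 bp (Syf2) and 94597 bp (Clic4). For Cbfb, past its own upstream peak at 17445 bp, they were 528870 bp (Ciao2b) and 36306 bp (B3gnt9), the latter with a fold of 10.18.

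Genes whose products work with RUNX proteins and genes known as RUNX targets in blood and bone were also placed against the peaks. Of 30 partner genes (corepressors, acetyltransferases, kinases and other binding partners), 26 were nearest to a peak (86.7%, against 39.1% of protein-coding genes), with the highest folds at Kmt2a (358.22), Crebbp (17.45) and Sin3a (15.87). Kmt2a encodes a histone H3K4 methyltransferase, Crebbp a histone acetyltransferase and Sin3a the scaffold of a histone deacetylase complex. The peaks of these 3 genes lay 66, 647 and 120 bp from a TSS. The Kmt2a fold was the highest of the whole list, where the third quartile was 8.89. That peak held 0 RUNX cores, and those of Crebbp and Sin3a held 1 each. Why the Kmt2a fold is so high was not tested. The partner genes nearest to no peak were Runx1t1, Hdac3, Cdk6 and Foxo3, named here after their values were seen. All 30 partner genes have a CpG-rich promoter, and of the 10194 protein-coding genes with one, 62.4% were nearest to a peak.

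Of 20 target genes of blood and bone, 6 were nearest to a peak (30%, against the same 39.1%). The highest folds were at Ccnd3 (17.4), which encodes a D-type cyclin and was nearest to 5 peaks, at Bcl2l11 (8.64), which encodes the pro-apoptotic BIM, and at Cebpa (7.96), a myeloid transcription factor gene. Spi1, Csf1r, Il2 and the bone genes Spp1, Ibsp and Mmp13, chosen as examples after their values were seen, were nearest to none. A CpG-rich promoter was present in 7 of the 20, and 5 of those 7 were nearest to a peak, as was 1 of the other 13. The difference between both lists was not tested, and the lists were chosen with earlier results of these data known.

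Peaks do not measure expression, so the ovarian label could not be checked by marker levels, and the marker lists give only where peaks lie. Their counts stand beside 39.1% of all protein-coding genes and 62.4% of those with a CpG-rich promoter. Of 12 genes listed as pre-granulosa markers, 8 were nearest to a peak (66.7%), with the highest folds at Fst (35.17), Wt1 (12.96) and Gata4 (12.03). The list is not specific to pre-granulosa cells. It holds Gata4, which the paper counts among factors critical for Sertoli cells, and Nr5a1, which the paper calls pro-testis. A CpG-rich promoter was present in 11 of the 12, of which 7 were nearest to a peak. Of 8 Sertoli markers, 4 were (50%), led by Fgf9 (11.72), Dmrt1 (9.02) and Amh (4.86), and of the 3 with a CpG-rich promoter 1 was. Of 10 blood and endothelial markers, 4 were (40%), led by Ptprc (12.26), Tal1 (8.33) and Adgre1 (6.48), and both of the 2 with a CpG-rich promoter were. Of 8 germ cell markers, 1 was (12.5%), Kit (17.12), which is among the 5 with a CpG-rich promoter. Several of these strongest peaks were far from a TSS. The distance was 0, 0 and 41 bp for Fst, Wt1 and Gata4, and 263721, 204 and 2042 bp for Fgf9, Dmrt1 and Amh. It was 38291, 225 and 22735 bp for Ptprc, Tal1 and Adgre1, and 260 bp for Kit. None of the shares above was tested against the others.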

How the data were processed

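RUNX1 ChIP-seq was done on pooled ovaries of CD1 embryos at E14.5 (2 ChIP and 2 input samples, grouped by the labels). Per the paper's methods, the authors filtered single-end reads, mapped them to mm10 at unique positions, removed duplicates, merged replicates, called peaks, set each to 300 bp and filtered them on enrichment. HOMER 4.9, bedtools 2.24.0, Bowtie 1.2 and Picard 1.110 are listed in the submitters' processing notes. The 1 deposited file used is a peak list that gives for each peak a position, a fold (a ratio to background) and a p-value, both from the authors' peak caller. The list gives neither the read depth behind a peak nor a value per replicate, and the reads of the single replicates were not analysed here.

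From the list onward, 10490 peaks on assembled chromosomes (4 were left out) were compared with the 45756 curated RefSeq transcripts of 26180 genes on GRCm38, the assembly also named mm10, with Python 3.11.15, pysam 0.24.0 and samtools 1.23.1. Distances ran from the peak edge, and coordinates are counted from 1. Motifs were matched as exact letters on both strands. TSSs of a gene within 1 kb of each other were joined into 1 promoter, represented by the TSS of most transcripts. A promoter had a peak when 1 lay within 1 kb of any of its TSSs. The matching code was tested on simulated sequences. No statistical test was run, since peaks called on merged reads are not replicates. Named genes were the 4 genes, neighbours nearest to a peak beside them, and up to 3 genes per list with the highest folds. Exceptions are said where they occur. The genes and lists were chosen with earlier results of these data known, and the promoter comparison and the paired cores were chosen after seeing the data. As alternatives, higher limits were set on the fold and lower ones on the p-value, and other assignment rules and core forms were tried. CD1 may differ from the C57BL/6J reference at the sequences shown.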

Additional observations from a re-analysis of the deposited data

How the results depend on the processing

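The number of peaks at the 4 genes fell from 8 to 3 with only peaks of fold 8 or more and to 2 with only p-values under 1e-20, where the median fold was 13.52 in place of 6.99. Peaks with a RUNX core went from 4 to 2 with TGTGGT alone and to 2 with fold 8 or more, and pathway genes nearest to a peak from 32 of 50 to 17 with fold 8 or more, where the share of all genes fell to 12.3%. By construction, these limits keep fewer peaks or sites. The other 18 values stayed within 1.5 times, from 6 to 8 peaks, from 7.83 to 9.95 in median fold, from 3 to 5 peaks with a core, 4 peaks near a TSS throughout, and 33 and 42 pathway genes by TSSs within 10 and 50 kb (40.2% and 60.2% of all genes). The RUNX genes with a peak at P2 alone fell from 3 to 1, Runx1, with fold 8 or more and also to 1 with p-values under 1e-20. They stayed at 3 within 500 bp and with promoters over 1 or 20 kb apart, where 10.6%, 10.8% and 10.3% of genes had this arrangement. These alternatives were chosen after seeing the data. No paired analysis was possible because the replicates were merged before peaks were called and no test was run.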

Other observations

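The RUNX genes lie beside paralogues of other families, CLIC chloride channel genes and RCAN calcineurin regulator genes, and RUNX1 peaks at these neighbours differed from gene to gene. These neighbours were chosen after seeing the data. Beside Runx3, Clic4 had a peak over its TSS with a fold of 6.89, a caller p-value of 2.92e-33 and 1 RUNX core. Rcan3 had a peak 103 bp from its TSS with a fold of 5.86, a caller p-value of 1.93e-09 and 0 cores. Beside Runx2, the peak nearest to Clic5 lay 68037 bp from its TSS with a fold of 7.84, a caller p-value of 4.15e-39 and 2 cores, and Rcan2 was nearest to none. Beside Runx1, Clic6 and Rcan1 were nearest to none. Within 100 kb of the Cbfb TSS there were 5 peaks, against 2 for Runx1, 3 for Runx2 and 1 for Runx3 around any of their TSSs. Of these 5 peaks, 2 were nearest to Cbfb and the others to other genes. No count over all genes stands beside these numbers, so they do not set Cbfb apart.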
